A study of Mus musculus with 28 samples.

Results

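Genes that release, carry, salvage and break down purine nucleosides are described here. They are 9 genes of nucleotide dephosphorylation, nucleoside uptake and purine breakdown, of 54446 genes listed in every library: Nt5e, Slc29a1, Adk, Ada, Pnp, Hprt, Gda, Xdh and Uox. They were chosen by name, with earlier results of these data known. Their expression was measured by polyA RNA-seq in the liver and kidney of healthy male mice labelled C57BL/6 (C57BL6J in the study's methods), 8 weeks of age, for which no genetic change is stated. Mice were gavaged for 7 days with nicotinamide mononucleotide (NMN), a precursor of NAD+, or with water as control. At 1340 mg/kg/d the gavage was given once daily, in 4 NMN mice and 4 water mice per organ. At 2680 mg/kg/d it was given in 2 gavages per day, in 3 NMN mice and 3 water mice per organ. Daily dose, number of gavages and the set of libraries changed together, so they cannot be told apart. The 28 libraries held from 12688324 to 33872983 counted reads. In kidney, depth did not overlap between treatments. It was 15354270 to 15696435 reads in water and 13174264 to 14006288 in NMN mice at 1340 mg/kg/d. At 2680 mg/kg/d it was 16358886 to 18983689 and 22922994 to 33872983. The mean mitochondrial share of counted reads in kidney was 9.71% in water and 9.48% in NMN mice of the first schedule and 20.6% and 20.3% in the second. The part of these differences in the results was not tested.

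As background, NMN is a nucleotide. The ectoenzyme CD73, made by Nt5e, removes the phosphate of AMP and can do the same to NMN, and the equilibrative transporter ENT1, made by Slc29a1, carries nucleosides such as adenosine into cells. Inside the cell, adenosine kinase (Adk) turns adenosine back into AMP and adenosine deaminase (Ada) turns it into inosine. Purine nucleoside phosphorylase (Pnp) then frees the base, which Hprt returns to the nucleotide pool, or which guanine deaminase (Gda), xanthine dehydrogenase (Xdh) and urate oxidase (Uox) carry on through xanthine and urate towards allantoin. The liver is known as a main site of this breakdown, and mice, unlike humans, keep a working Uox.

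The labelled organs carried their own markers. The 5 hepatocyte markers, led by Alb, summed to between 101550 and 227239 CPM in the liver libraries and to between 57.9 and 170.5 CPM in the kidney libraries. CPM is the count scaled to library size, with TMM factors over all 28 libraries. The 5 proximal tubule markers, led by Slc34a1, summed to between 4172 and 7314 CPM in the kidney. In the liver they summed to between 14.1 and 21.1 CPM at 1340 mg/kg/d and between 0.987 and 11.3 CPM at 2680 mg/kg/d, where the highest value was that of NMN mouse 1. Both sums of the other organ's markers were higher in every library of the first schedule than in any of the second. The loop of Henle, distal tubule and collecting duct markers summed in liver of water mice to means of 5.85, 1.99 and 1.59 CPM in the first schedule. In the second these were 0.397, 0.275 and 0.833 CPM, and NMN mice were also lower there in each list. Not all markers followed. The podocyte markers summed in liver to a mean of 4.87 CPM in water and 6.90 CPM in NMN mice of the first schedule and 7.42 and 10.9 CPM in the second. Most of this sum was Podxl, with 4.52 and 6.04 CPM in the first and 6.77 and 10.2 CPM in the second. The hepatocyte marker Ttr had a mean in kidney of 68.5 and 48.6 CPM in the first and 73.7 and 70.4 CPM in the second. The part of these transcripts in the results below was not tested.

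In water mice, most of the 9 genes were higher in liver, Nt5e was higher in kidney, and Ada did not differ at the threshold. Kidney and liver were compared in the water mice of each schedule with edgeR's quasi-likelihood test, adjusted by Benjamini-Hochberg over all genes tested, with an adjusted p under 0.05 as the threshold. Of the 9 genes, 8 differed between the organs at 1340 mg/kg/d, 1 higher and 7 lower in kidney, beside 66.9% of all 14599 genes tested called and 30.9% lower. The same numbers were found at 2680 mg/kg/d, beside 70.5% of all 14844 genes tested called and 31% lower. A share of 8 in 9 is near this background, so the sizes of the differences are given for each gene. The median log2 difference of the 9 genes was -1.85 and -1.61, beside 0.10 and 0.17 for all genes tested. Libraries of the 2 organs did not overlap for 7 of 9 genes at 1340 mg/kg/d (61.8% of all genes) and for 9 of 9 at 2680 mg/kg/d (75.3% of all genes).

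Uox was the most abundant of the 9 genes in liver and nearly absent from kidney. Its gene model (ENSMUSG00000028186.14) lies at chr3:146570426-146632305 on the plus strand of GRCm38, as annotated in GENCODE M21. In liver, water mice of the 1340 mg/kg/d schedule had 1505, 2560, 2378 and 2993 CPM, and those of the 2680 mg/kg/d schedule 2172, 3180 and 3087 CPM. In kidney, the counts were 22, 27, 25 and 62 reads in the first schedule (1.03, 1.16, 1.12 and 2.77 CPM) and 2, 2 and 0 reads in the second. No kidney library came near a liver library. The level in liver was 1569 times that in kidney at 1340 mg/kg/d (95% interval 1326 to 1871) and 46042 times at 2680 mg/kg/d (95% interval 17982 to 168984), where the intervals cover counting error only. In water mice, kidney levels of the 5 hepatocyte markers were also a smaller share of the liver level in the second schedule, to different degrees. Uox in kidney was 0.0645% of its liver level in water mice at 1340 mg/kg/d, Alb 0.0614%, Apoa1 0.0529%, Cps1 0.0492%, Serpina1c 0.0792% and Ttr 0.863%. In the same order, the shares at 2680 mg/kg/d were 0.00213%, 0.00491%, 0.00582%, 0.0012%, 0.0237% and 0.692%. Uox lay among the 5 markers in both schedules, Serpina1c and Ttr were above it in each, and the source of the few Uox reads in kidney was not tested.

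**Figure D1:**
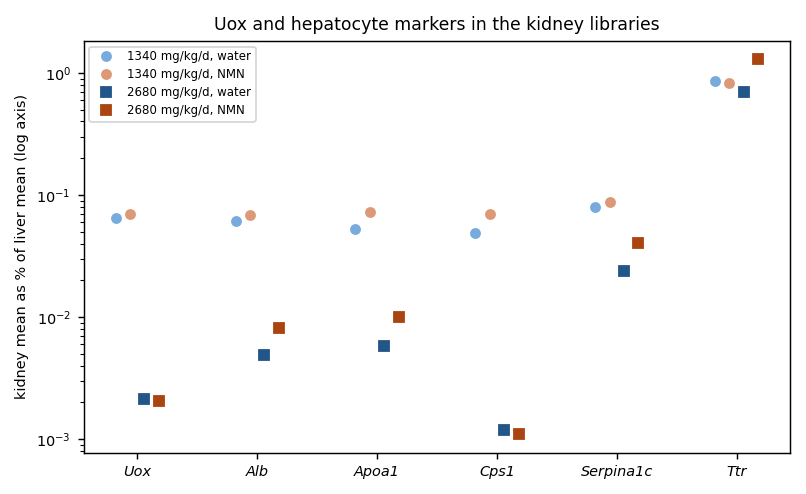
Mean kidney level as a percentage of the mean liver level (log axis) for Uox and 5 hepatocyte markers, by schedule (circles 1340, squares 2680 mg/kg/d) and treatment (blue water, orange NMN). Uox, Alb, Apoa1 and Cps1 lie between 0.0492% and 0.0726% at 1340 mg/kg/d and below 0.01% at 2680 mg/kg/d, while Ttr lies higher, between 0.692% and 1.29%, in both.

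Nt5e had the opposite pattern. The gene (ENSMUSG00000032420.8, chr9:88327197-88372092, plus strand) was measured at 4.36, 7.62, 8.675 and 8.69 CPM in liver of water mice at 1340 mg/kg/d and at 117, 74.0, 37.2 and 51.2 CPM in kidney. The water mice of the 2680 mg/kg/d schedule had 10.6, 8.28 and 4.69 CPM in liver and 78.9, 36.7 and 48.4 CPM in kidney. Every kidney library was above every liver library. The log2 difference, kidney against liver, was 3.22 (SE 0.36, adjusted p = 1.41e-05) and 2.77 (SE 0.34, adjusted p = 8.07e-05). It was the 1 gene of the 9 that was higher in kidney.

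Adk and Slc29a1 were each several times higher in liver. Adk (ENSMUSG00000039197.10, chr14:21052574-21448569, plus strand) was at 613 to 873 CPM in liver and 99.0 to 105 CPM in kidney at 1340 mg/kg/d, a log2 difference of -2.92 (SE 0.13). The difference was -2.91 (SE 0.11) at 2680 mg/kg/d. Slc29a1 (ENSMUSG00000023942.15, chr17:45585200-45599606, minus strand) was at 256 to 280 CPM in liver and 23.0 to 30.7 CPM in kidney, a log2 difference of -3.35 (SE 0.12), and at 2680 mg/kg/d the difference was -3.74 (SE 0.16). Its exons overlap those of Gm17080 on the other strand, and the counts ignore strand.

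The enzymes between nucleoside and urate were also lower in kidney, by different amounts. Xdh (ENSMUSG00000024066.9, chr17:73883895-73950196, minus strand) differed by a log2 of -2.78 (SE 0.16) and -2.95 (SE 0.13). Gda (ENSMUSG00000058624.12, chr19:21391307-21473445, minus strand, matched without its version) differed by -1.85 (SE 0.23) and -1.61 (SE 0.21). Pnp (ENSMUSG00000115338.2, chr14:50931082-50965237, plus strand) differed by -0.86 (SE 0.20) and -0.91 (SE 0.18). Of its 3979 exon bases 3109 are its own and the rest are shared with Gm38316 and Gm49342, where reads that lie within 2 genes are not counted, so the Pnp counts are uncertain. Its model also spans that of its close relative Pnp2, which was at 0 to 1.45 CPM in all libraries.

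Hprt had the smallest difference that passed the test, and Ada did not pass. Hprt (ENSMUSG00000025630.8, chrX:52988137-53021659, plus strand) was at 62.4 to 95.9 CPM in liver and 48.2 to 64.0 CPM in kidney at 1340 mg/kg/d, and its log2 difference was -0.52 (SE 0.15, adjusted p = 0.00771). At 2680 mg/kg/d it was -0.40 (SE 0.12, adjusted p = 0.014), which was lost with upper quartile scaling (-0.24, adjusted p = 0.11), with a minimum of 10 counts in every library (adjusted p = 0.0533) and without kidney mouse 1 (adjusted p = 0.06) or kidney mouse 3 (adjusted p = 0.0632). Upper quartile scaling moved the median of all genes from 0.10 to 0.25 and from 0.17 to 0.33. The direction for Hprt also rested on the scaling in both schedules. At 1340 mg/kg/d the TMM factors were 0.735 to 0.794 in liver and 1.361 to 1.496 in kidney, and the Hprt counts 704 to 1070 and 1118 to 1368. Without such factors, Hprt per counted read was higher in each kidney library than in any liver library of the same schedule. Ada (ENSMUSG00000017697.3, chr2:163726584-163750239, minus strand) was low in both organs, between 0.183 and 2.22 CPM in water mice, and its log2 differences of 0.01 (SE 0.62) and -0.91 (SE 0.41, adjusted p = 0.07) did not pass. Without liver mouse 3 the second became -1.17 (adjusted p = 0.0269).

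**Figure D2:**
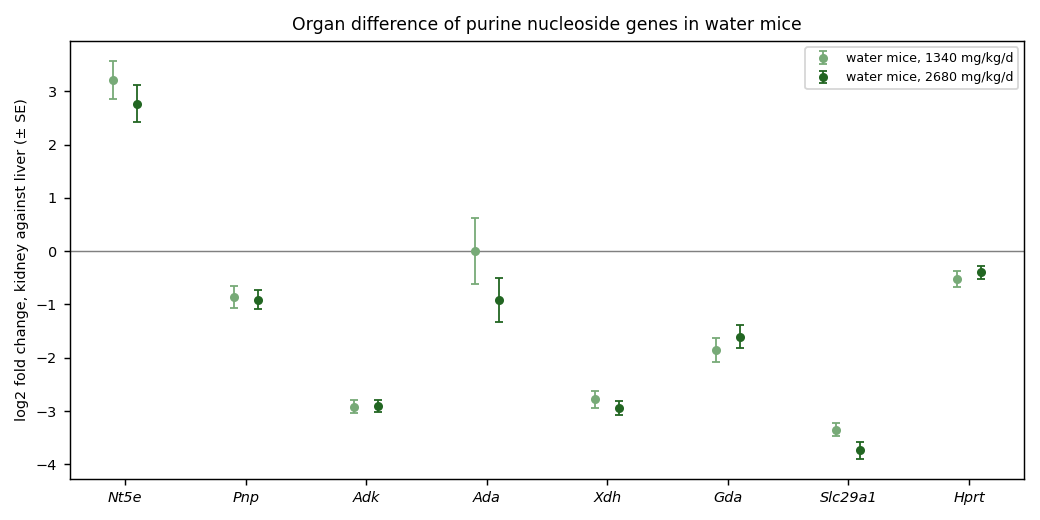
Log2 fold change of kidney against liver (± SE) in water mice, at 1340 mg/kg/d (light) and 2680 mg/kg/d (dark), for the 9 genes except Uox, whose kidney counts reach 0. Nt5e lies above 0 at 3.22 and 2.77, Ada near 0 or at -0.91, and the other 6 genes lie below 0, down to -3.74 for Slc29a1.

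Set per kilobase of exon that belongs to the gene alone, the order of levels differed between the organs. In liver of water mice at 1340 mg/kg/d, Uox came first with 471 CPM per kb, then Adk with 89.1, Slc29a1 with 71.1, Hprt with 59.6, Pnp with 23.5, Xdh with 12.6, Gda with 5.32, Nt5e with 0.853 and Ada with 0.495. Among neighbours in this order, single libraries overlapped between Adk and Slc29a1, between Slc29a1 and Hprt, and between Nt5e and Ada. The order in liver was the same at 2680 mg/kg/d. In kidney at 1340 mg/kg/d, Hprt led with 42.3 CPM per kb, followed by Pnp with 13.2, Adk with 11.99, Nt5e with 8.13 and Slc29a1 with 7.10. The libraries of Pnp and Adk overlapped, as did those of Nt5e with Pnp, Adk and Slc29a1. Uox stood last in kidney with 0.304 CPM per kb, and its libraries overlapped those of Ada.

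The promoter sequences of 4 genes are shown to span the organ patterns: Uox with the largest difference between liver and kidney, Nt5e as the gene higher in kidney, Hprt with the smallest difference that passed, and Adk as the gene called under NMN. Each is the 250 bases before the RefSeq start on GRCm38.p6, plus strand, 5′ to 3′, with capitals marking a motif on either strand. The motifs searched were the GC box with the letters GGGCGG, the CAAT box motif with the letters CCAAT, and TATAAA as the TATA motif. The windows are chr3:146596899-146597148 for Uox, chr9:88327359-88327608 for Nt5e, chr14:21052324-21052573 for Adk and chrX:52987828-52988077 for Hprt.
Uox: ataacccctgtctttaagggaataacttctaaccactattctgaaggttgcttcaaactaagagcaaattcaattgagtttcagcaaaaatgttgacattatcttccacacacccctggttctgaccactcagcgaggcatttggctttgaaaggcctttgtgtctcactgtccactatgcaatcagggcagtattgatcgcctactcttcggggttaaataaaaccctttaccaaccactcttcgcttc
Nt5e: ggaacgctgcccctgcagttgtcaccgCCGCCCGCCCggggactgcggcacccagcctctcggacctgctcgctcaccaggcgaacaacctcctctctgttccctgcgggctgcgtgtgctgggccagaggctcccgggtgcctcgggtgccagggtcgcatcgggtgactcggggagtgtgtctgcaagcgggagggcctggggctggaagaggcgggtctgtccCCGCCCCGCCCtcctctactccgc
Adk: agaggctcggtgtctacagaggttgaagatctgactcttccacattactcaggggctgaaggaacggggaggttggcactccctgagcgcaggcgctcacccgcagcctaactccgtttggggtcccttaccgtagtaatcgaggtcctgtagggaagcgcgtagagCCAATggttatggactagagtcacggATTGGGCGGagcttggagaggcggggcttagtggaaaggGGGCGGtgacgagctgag
Hprt: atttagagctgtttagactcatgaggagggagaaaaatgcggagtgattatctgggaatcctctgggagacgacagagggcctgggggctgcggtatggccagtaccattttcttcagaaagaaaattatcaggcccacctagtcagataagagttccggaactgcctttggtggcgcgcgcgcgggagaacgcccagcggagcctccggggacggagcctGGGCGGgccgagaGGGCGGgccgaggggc

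The Uox window held none of these motifs and had a GC content of 42.8% with 4 CpG dinucleotides, while the median of 32851 promoters was 52.4% with 6. The Nt5e window held 4 GC boxes, which overlap in pairs, with a GC content of 72.0% and 21 CpG. The Adk window held 2 GC boxes and 2 of the CAAT motif, which share 2 bases at one place, with a GC content of 58.8% and 15 CpG. A second RefSeq start of Adk is not shown. The Hprt window held 2 GC boxes with a GC content of 59.6% and 17 CpG. A GC box was found in 32.7% of all promoters of this length, a CAAT motif in 33.8% and a TATA motif in 12.4%. These matches describe the letters of the windows only. The Uox and Nt5e windows lie inside the gene models used for counting, which start upstream of them, at chr3:146570426 and chr9:88327197. The sequence before those annotated starts was not examined. The promoter table used here held 8 of the 9 genes, and that of Xdh was not analysed here.

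NMN was then compared with water within each organ and schedule. Across the 4 comparisons 35 tests of the 9 genes were made, since Uox was too low to be tested in kidney at 2680 mg/kg/d, and 1 passed the threshold. This was Adk in the liver at 2680 mg/kg/d, which fell. In liver at 1340 mg/kg/d 0 of 9 genes passed, beside 0.0161% of all 12449 genes tested. In liver at 2680 mg/kg/d it was 1 of 9, beside 7.08% of all 12477 genes called and 4.03% lower. In kidney it was 0 of 9 at 1340 mg/kg/d, beside 0.12% of all genes, and 0 of 8 at 2680 mg/kg/d, beside 0.4% of all genes. At an unadjusted p under 0.05, the members numbered 1, 3, 1 and 3 in the same order, beside 6.86%, 24.6%, 8.94% and 11.1% of all genes. DESeq2 called 0, 1, 0 and 0 of the 9 genes, and its 1 gene was Adk. In each comparison it called more of all genes than edgeR did, with the counts given under the processing below. A share of 1 in 9 in the liver is near the background of that comparison.

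**Figure D3:**
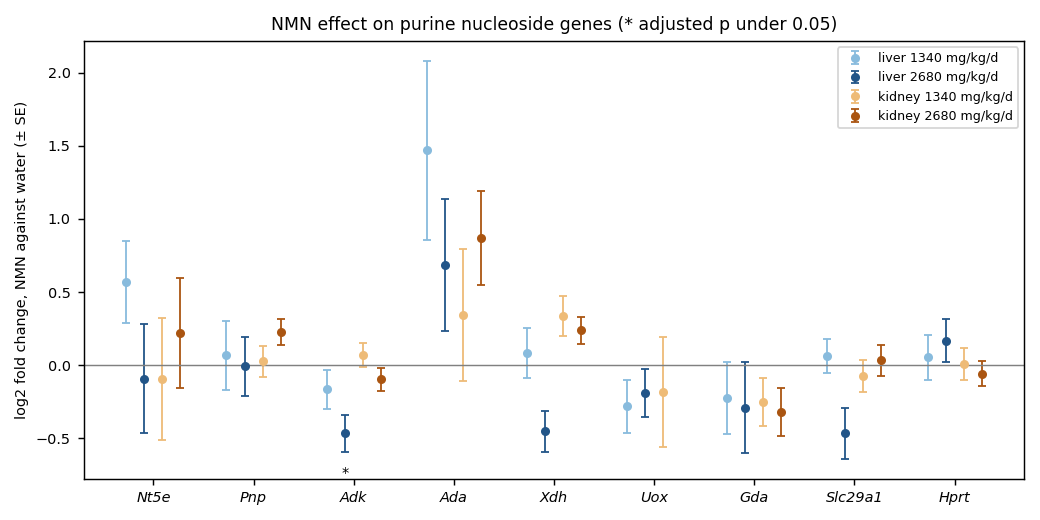
Log2 fold change of NMN against water (± SE) for the 9 genes in liver and kidney at 1340 and 2680 mg/kg/d. An asterisk marks the 1 gene with an adjusted p under 0.05, Adk in liver at 2680 mg/kg/d (-0.47), and Uox has no point for kidney at 2680 mg/kg/d.

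Adk, which returns adenosine to AMP, was measured at 880, 933 and 816 CPM in the liver of water mice at 2680 mg/kg/d and at 574, 670 and 656 CPM in NMN mice. All NMN mice were below all water mice. The log2 fold change was -0.47 (SE 0.12, adjusted p = 0.0463, edgeR). Groups that did not overlap were found for 2 of 9 genes here, beside 29.3% of all genes, and with 3 mice against 3 an exact permutation test cannot give a p below 0.1. The call stood close to the threshold: it was lost without the robust option of edgeR (adjusted p = 0.0524) and whenever any 1 of the 6 mice was left out, with log2 fold changes between -0.50 and -0.42 and adjusted p between 0.0604 and 0.178. At 1340 mg/kg/d the liver values were 613, 785, 767 and 873 CPM in water mice and 637, 688, 649 and 714 CPM in NMN mice, a log2 fold change of -0.17 (SE 0.13), and the groups overlapped. In kidney, Adk changed by 0.07 (SE 0.08) and -0.10 (SE 0.08), neither of which passed.

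Markers of hepatocytes were lower in the same 2680 mg/kg/d livers. All 5 had negative log2 fold changes, and 2 of them passed the test, the carrier protein gene Ttr with -0.97 and Serpina1c with -0.58. The summed level of the 5 was 227239, 212454 and 197597 CPM in water mice and 145520, 174803 and 168505 CPM in NMN mice. Alb, the most abundant, changed by -0.36 (SE 0.11, adjusted p = 0.075), and none of the 5 was at 0. Larger falls were found in single markers of 2 other cell types. Cela1, an elastase gene of the list of pancreatic acinar cells, was at 32.1, 34.2 and 27.1 CPM in water mice and 5.57, 9.44 and 5.78 CPM in NMN mice (log2 -2.17, SE 0.23, adjusted p = 0.000731). The other 4 acinar markers were at 0 in all 6 libraries. Alas2, the red cell enzyme that starts heme synthesis, fell from 141 to 42.9 CPM (log2 -1.72, SE 0.20, adjusted p = 0.00121) and led the sum of the 5 red cell markers, which was 165, 190.3 and 159.6 CPM in water mice and 58.0, 64.7 and 118 CPM in NMN mice. The 4 globin genes of that list had values between -0.01 and 0.60, and none of them passed. Of the markers of the remaining cell types edgeR called none, and Star, of the adrenal cortex list, was the 1 with an unadjusted p under 0.05 (log2 1.07, adjusted p = 0.144). In bulk tissue, fewer cells of a type and less RNA per cell cannot be told apart, and the part of these markers in the Adk result was not tested. Reads assigned to no gene also differed between these groups without overlap, with 3.62%, 3.27% and 3.47% of all reads listed in water mice and 5.06%, 3.90% and 4.21% in NMN mice. NMN mouse 1, with the lowest Adk, had 9.24% mitochondrial reads among its counted reads, where the other 5 libraries had 5.74% to 7.37%. The part of these values was not tested either.

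Xdh, which makes urate, was next to the threshold in the same organ. Its values were 138, 149 and 162 CPM in water mice and 103, 120 and 105 CPM in NMN mice, without overlap. The log2 fold change of -0.45 (SE 0.14, adjusted p = 0.0751) did not pass. In kidney at 2680 mg/kg/d, Xdh was at 18.5, 21.3 and 19.2 CPM in water mice and 22.4, 22.7 and 24.7 CPM in NMN mice. Here too the groups did not overlap, with NMN mice the higher, but the log2 fold change was 0.24 (SE 0.10, adjusted p = 0.376). The log2 fold changes at 1340 mg/kg/d were 0.08 (SE 0.17) in liver and 0.34 (SE 0.13, adjusted p = 0.463) in kidney.

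The difference of the NMN effect between the organs was tested as an interaction. It passed for 1 of the 9 genes at 2680 mg/kg/d, Xdh, beside 2.65% of all 15811 genes tested. Uox is among the 9, but its kidney libraries held 0 to 3 reads, too few to give an NMN effect in kidney. An unadjusted p under 0.05 was found for 3 of the 9, beside 19.4% of all genes. The difference for Xdh, kidney against liver, was 0.70 on the log2 scale (SE 0.16, adjusted p = 0.0347). It was lost when the replicate number was added as a block within each organ (adjusted p = 0.0513). That block joined water and NMN mice of one number. It did not join the liver and kidney of one number, and a fit that did was not made. The difference was also lost in 8 of the 12 fits that left out 1 library, with adjusted p up to 0.105. These were the fits without liver water mouse 2, liver NMN mouse 3 or any of the 6 kidney libraries. DESeq2 called Xdh and also Adk (0.40, adjusted p = 0.0188), for which edgeR gave 0.38 (adjusted p = 0.161). DESeq2 also called more of all genes here than edgeR, with the counts given under the processing below. In these kidneys the summed proximal tubule markers were 5882, 5744 and 6257 CPM in water mice and 4172, 5377 and 4982 CPM in NMN mice, and their part in the Xdh difference was not tested. The interaction at 1340 mg/kg/d passed for 0 of 9 genes, beside 0% of all 15614 genes in edgeR, of which 904 (5.79%) had an unadjusted p under 0.05, 0 of the 9 among them. DESeq2 called 27 of all genes and 0 of the 9.

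Slc29a1, the nucleoside transporter, had a log2 fold change of the same size as Adk in the 2680 mg/kg/d livers, with a wider spread. Water mice had 292, 335 and 235 CPM and NMN mice 160, 243 and 222 CPM, so that 1 NMN mouse lay among the water mice. The log2 fold change was -0.47 (SE 0.17, adjusted p = 0.129). At 1340 mg/kg/d it was 0.06 (SE 0.12) in liver, and in kidney it was -0.07 (SE 0.11) and 0.03 (SE 0.11). None of these passed.

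Ada, which deaminates adenosine, had a positive log2 fold change in all 4 comparisons, and none passed the test. In liver at 1340 mg/kg/d, water mice had 0.312, 2.22, 0.183 and 1.25 CPM and NMN mice 4.42, 2.12, 3.11 and 1.52 CPM. The groups overlapped, and the log2 fold change was 1.47 (SE 0.61, adjusted p = 0.676). Without water mouse 2 it was 2.22, and without any other single mouse it was between 1.13 and 1.66, with adjusted p between 0.546 and 0.998 over these fits. At 2680 mg/kg/d it was 0.68 (SE 0.45, adjusted p = 0.383), and in kidney it was 0.34 (SE 0.45, adjusted p = 0.87) and 0.87 (SE 0.32, adjusted p = 0.327). In the last comparison the kidney values were 0.757, 0.765 and 1.05 CPM in water mice and 2.08, 1.15 and 1.48 CPM in NMN mice. These groups did not overlap, and Ada and Xdh were the 2 of 8 genes without overlap in that comparison, beside 17.2% of all genes. Ada had at most 4.42 CPM in any library.

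Uox, Gda, Hprt and Pnp did not pass the test in any comparison of NMN with water. Uox in liver was at 1699, 2082, 2068 and 1855 CPM in NMN mice at 1340 mg/kg/d and at 2341, 2806 and 2259 CPM at 2680 mg/kg/d, with log2 fold changes of -0.28 (SE 0.18) and -0.19 (SE 0.16). Gda had negative log2 fold changes in all 4 comparisons, between -0.32 (SE 0.16) and -0.23 (SE 0.25). Hprt had log2 fold changes between -0.06 and 0.17. Pnp lay between -0.01 and 0.07 in 3 comparisons, and in kidney at 2680 mg/kg/d it had 48.6, 40.8 and 43.1 CPM in water mice and 52.6, 54.8 and 48.0 CPM in NMN mice (log2 0.23, SE 0.09, adjusted p = 0.364). One of those NMN mice lay within the range of the water mice. At 1340 mg/kg/d the groups did not overlap for 0 of 9 genes in liver, beside 3.52% of all genes, and for 0 of 9 in kidney, beside 4.97%.

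**Figure D4:**
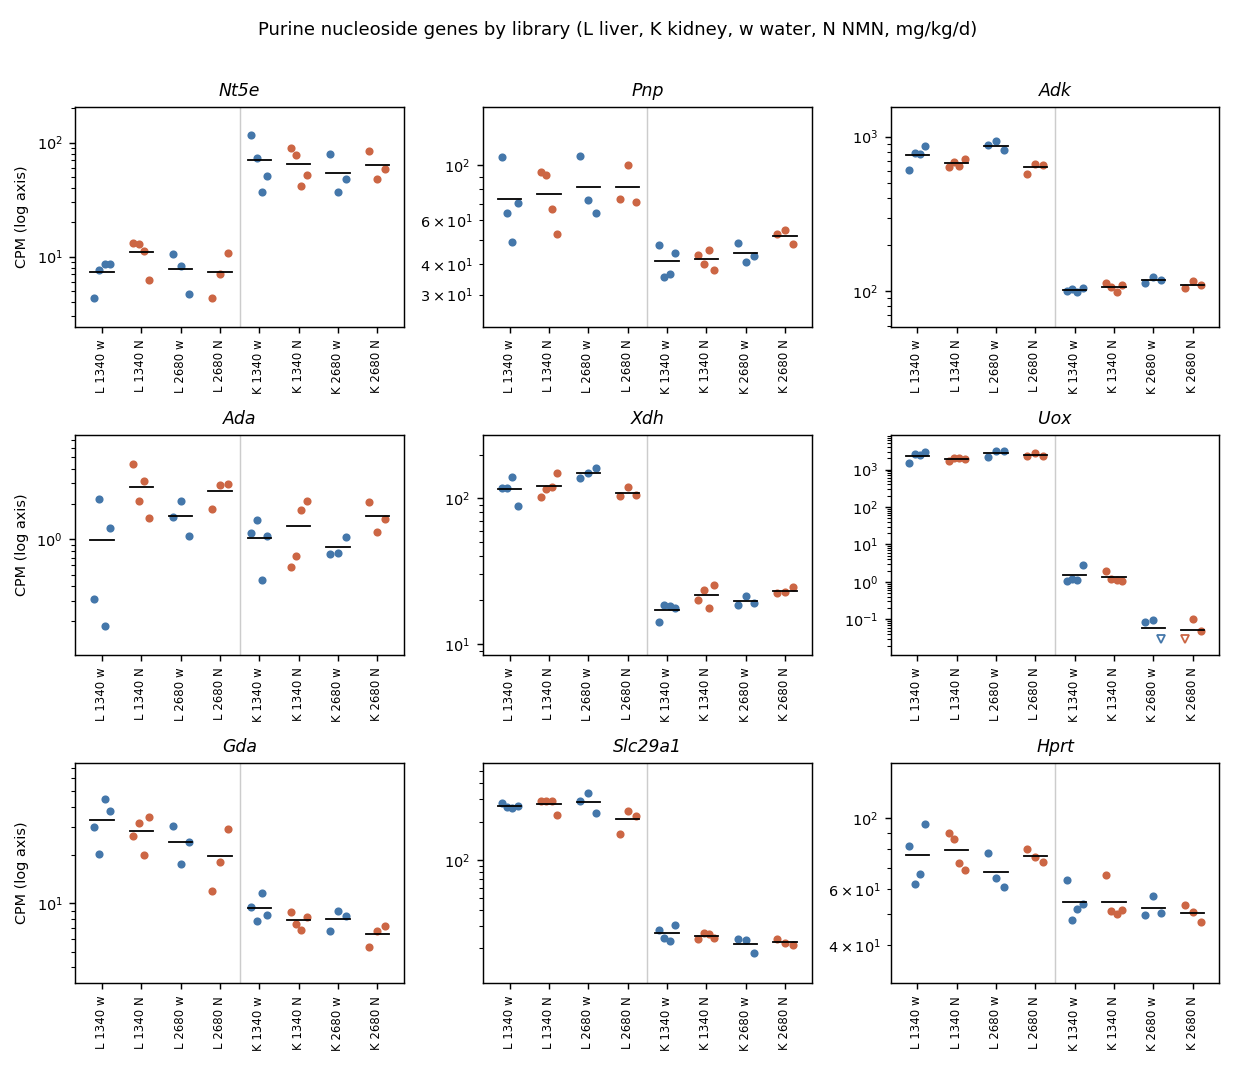
CPM (log axis) of each of the 9 genes in each library, by organ (L liver, K kidney), schedule in mg/kg/d and treatment (w and blue, water; N and orange, NMN), with a bar for the group mean and an open triangle at the bottom for a library with 0 reads. Adk in liver at 2680 mg/kg/d shows NMN mice (574 to 670 CPM) below water mice (816 to 933 CPM), and Uox falls from 1505 CPM or more in liver to at most 2.77 CPM in kidney.

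Nt5e, the ectoenzyme that dephosphorylates AMP, had a wide spread between mice in kidney. Its coefficient of variation among water mice was 50.03% at 1340 mg/kg/d and 39.8% at 2680 mg/kg/d, while the median gene had 12.5% and 9.40%. NMN mice had 90.1, 77.7, 41.5 and 52.4 CPM at 1340 mg/kg/d and 85.1, 48.3 and 58.6 CPM at 2680 mg/kg/d, against the water values given above. In each schedule, the mice of water and NMN ranked in the same order by replicate number: 1, 2, 4 and 3 from the highest at 1340 mg/kg/d, and 1, 3 and 2 at 2680 mg/kg/d. In liver, the water and NMN mice ranked in opposite orders in each schedule. From the highest, water mice ranked 4, 3, 2 and 1 and NMN mice 1, 2, 3 and 4 at 1340 mg/kg/d. At 2680 mg/kg/d water mice ranked 1, 2 and 3 and NMN mice 3, 2 and 1. The kidney order was noticed after the values were seen. Nothing states that mice of one number were handled together. In kidney the log2 fold changes were -0.10 (SE 0.42) and 0.22 (SE 0.38). In liver they were 0.57 (SE 0.28, adjusted p = 0.761) and -0.09 (SE 0.38).

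**Figure D5:**
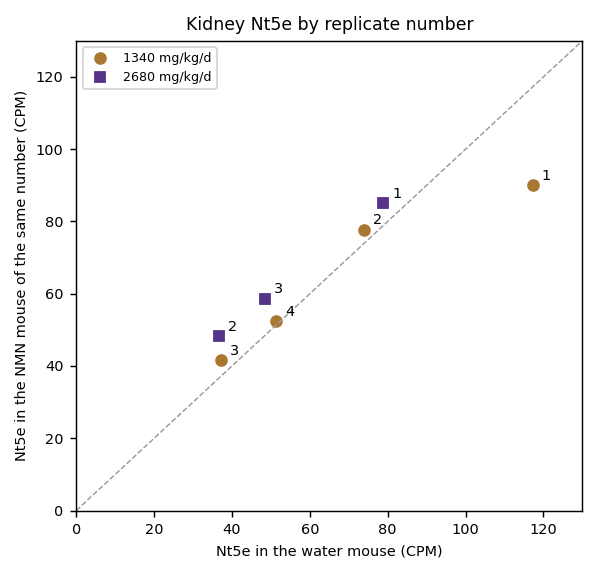
Kidney Nt5e (CPM) of the NMN mouse against that of the water mouse with the same replicate number (printed beside each point), at 1340 mg/kg/d (circles) and 2680 mg/kg/d (squares), with a dashed line of equality. Mouse 1 is highest in both treatments and both schedules, from 78.9 to 117 CPM.

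The schedules were set against each other in the 14 libraries of each organ, with a term for the difference of their NMN effects. It passed for 0 of 9 genes in liver, beside 0.0746% of all 13412 genes tested, and for 0 of 9 in kidney, beside 0.00625% of all 15989 genes. At an unadjusted p under 0.05 it was 2 genes in liver, beside 8.6% of all genes, and 0 in kidney, beside 4.62%. DESeq2 called 0 of 9 in each organ, while it called more of all genes than edgeR in both (counts under the processing below). Uox is among the 9 in kidney, but its 2680 mg/kg/d kidney libraries held 0 to 3 reads, too few to give an NMN effect there. In liver the difference was -0.53 for Xdh (SE 0.23, adjusted p = 0.523), -0.52 for Slc29a1 (SE 0.20, adjusted p = 0.463) and -0.29 for Adk (SE 0.18, adjusted p = 0.698). A difference of the Adk effect between the schedules was thus not detectable.

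The other genes of purine metabolism were read from a list of 81 genes, the 9 included. In liver at 2680 mg/kg/d, 65 were tested, of which 2 were higher and 6 lower at the threshold, beside 7.08% of all genes called and 4.03% lower, with a median log2 fold change of -0.06 beside 0.00447 for all genes. With NMN at 1340 mg/kg/d in liver, and at 1340 and 2680 mg/kg/d in kidney, 65, 69 and 69 genes were tested and edgeR called 0, while 4, 9 and 15 had an unadjusted p under 0.05, beside 6.86%, 8.94% and 11.1% of all genes. The counts in the single lists that follow are for liver at 2680 mg/kg/d and stand beside the same 7.08%. Among nucleotidases and ectonucleotidases, 15 of 19 were tested. Entpd5, a nucleoside diphosphatase, rose from 263 to 491 CPM (log2 0.90, SE 0.20, adjusted p = 0.0255) and Enpp4, a gene of the ectonucleotide pyrophosphatase family, from 10.8 to 20.5 CPM (log2 0.93, SE 0.24, adjusted p = 0.0416). Entpd8, an ATP-hydrolysing ectoenzyme, fell from 90.7 to 51.5 CPM (log2 -0.82, SE 0.18, adjusted p = 0.0215).

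Breakdown genes beyond the 9 included Urad, which acts after Uox. It fell in the 2680 mg/kg/d livers from 36.2 to 22.9 CPM (log2 -0.65, SE 0.17, adjusted p = 0.0466). It was the 1 gene called of 11 tested in the list of purine breakdown, of which 9 had negative values. Of 15 genes of purine synthesis tested, 2 fell: Prps2, which makes phosphoribosyl pyrophosphate, from 14.5 to 6.81 CPM (log2 -1.09, SE 0.21, adjusted p = 0.0154), and Adssl1, an adenylosuccinate synthase, from 34.9 to 21.2 CPM (log2 -0.72, SE 0.19, adjusted p = 0.045). Of the 7 listed adenosine receptors and adenosylhomocysteine hydrolases 5 were tested and 1 was called, the receptor gene Adora1, which fell from 28.6 to 9.43 CPM (log2 -1.58, SE 0.32, adjusted p = 0.0196). Adk was the 1 gene called of 11 salvage genes tested. Of the 3 nucleoside transporters and 5 urate transporters tested, 0 passed in edgeR. An unadjusted p under 0.05 was found for 1 gene of each list, beside 24.6% of all genes.

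List genes with the smallest p in the other comparisons did not pass. In the liver at 1340 mg/kg/d they included the urate transporter Slc17a1 (log2 0.52, adjusted p = 0.511) and Ada. In kidney at 1340 mg/kg/d they were the nucleoside transporter Slc29a3 (log2 -0.47, adjusted p = 0.0881), the ectonucleotidase Entpd1 (log2 0.90, adjusted p = 0.115) and Abcc4 (log2 0.68, adjusted p = 0.165). In kidney at 2680 mg/kg/d they were Ahcy, which hydrolyses adenosylhomocysteine to adenosine and homocysteine (log2 0.41, adjusted p = 0.125), Abcc4, an efflux pump that also carries urate (log2 1.07, adjusted p = 0.13), and Prpsap1 (log2 0.24, adjusted p = 0.253). For Slc29a3, all NMN mice were below all water mice in kidney at 1340 mg/kg/d, and the groups overlapped at 2680 mg/kg/d.

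Genes whose liver level followed that of Adk most closely over the 14 liver libraries included Zcchc24 (Pearson r = 0.90) and AI464131 (r = 0.90), among 12128 genes compared. Each library was taken on the log2 scale relative to the mean of its schedule. These values describe libraries that share treatment.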

How the data were processed

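PolyA RNA was sequenced from 28 mouse libraries. The authors used STAR for alignment and HTSeq-count (strict intersection, no strand) for counting, and deposited raw counts. Ambiguous reads are not counted. The genome build was not given in a form that names a mouse build. Of 54446 identifiers, 53229 matched GENCODE M21 with version, 1180 without and 37 not at all, and all 9 genes matched.

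Counts were tested in R 4.3.3 with edgeR 4.0.16 (filterByExpr, TMM, robust quasi-likelihood test, Benjamini-Hochberg adjustment over all genes tested, threshold 0.05). Standard errors are the log2 fold change over the square root of F. Levels are CPM, or CPM per kb of exon belonging to the gene alone. DESeq2 1.42.0 was an alternative. Other alternatives were other scalings and filters, no robust option, an added replicate block and each library left out in turn. Scripts were tested on simulated counts. Depth was 12688324 to 33872983 counted reads, and intervals cover counting error only.

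The 9 genes, the lists and the markers were chosen with earlier results of these data known. All 9 genes are described. Of the other list genes, those called under NMN and the 3 with the smallest p per comparison are named, and for a called gene the 3 genes with the highest correlation. Some genes that these rules name are not reported here.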

Additional observations from a re-analysis of the deposited data

Results flagged for a closer look

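Among the 36 groups of 4 mice examined for a library far from the rest, 3 stood out, and chance flags about 1 group in 20. Kidney Uox was 2.77 CPM in water mouse 4 at 1340 mg/kg/d, where the other 3 had 1.03 to 1.16 CPM. That library also had the highest summed hepatocyte markers of its group (170.5 CPM, where the others had 125.5 to 156.3), and their part was not tested. Liver Slc29a1 was 227.4 CPM in NMN mouse 4 at 1340 mg/kg/d, where the other 3 had 289.9 to 292.9 CPM. Kidney Hprt was 66.4 CPM in NMN mouse 1 at 1340 mg/kg/d, where the other 3 had 50.04 to 51.4 CPM.

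The effect of NMN on Xdh differed between the organs at 2680 mg/kg/d by 0.70 on the log2 scale, from the interaction test (adjusted p = 0.0347, edgeR). It did not pass with the replicate block within each organ (adjusted p = 0.0513) or in 8 of the 12 fits without 1 library (adjusted p up to 0.105). All 3 NMN mice were below the water mice in liver and above them in kidney.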

How the results depend on the processing

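Single-gene values under alternatives other than leaving out a library kept direction and side of the threshold in 713 of the cases, while 12 became stronger, 9 weaker and 4 changed sign. With 1 library left out, 767 kept both, 92 changed sign, 16 became weaker and 1 stronger. Results that changed sign had reported log2 values of at most 0.344 in size and adjusted p of at least 0.6. Causes were not tested.

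Counts of all genes called are given in the order NMN in liver 1340, liver 2680, kidney 1340 and kidney 2680 (2, 883, 18 and 61). DESeq2 gave 74, 1450, 159 and 236, no filter on low counts 44, 1785, 269 and 514, an unadjusted p 854, 3072, 1338 and 1688, and adjusted p under 0.01 with fold over 2 gave 0, 135, 2 and 3. All 14 libraries of the organ gave 6 in liver 1340 and 35 in kidney 2680, and no robust option gave 5 in kidney 1340. Leaving out 1 library gave 0 to 18, 211 to 1308, 5 to 67 and 3 to 191. The stricter threshold gave 6016 and 6474 genes between organs. For the schedule difference in liver (10), DESeq2 gave 98, no filter 71, an unadjusted p 1154 and leaving out 1 library 7 to 25. In kidney (1) these were 10, 106, 738 and 0 to 1. For the organ difference of the NMN effect at 1340 mg/kg/d (0), they were 27, 9, 904 and 0 to 9, and at 2680 mg/kg/d (419) they were 1234, 1307, 3071 and 118 to 1347.

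Of the 9 genes, an unadjusted p under 0.05 counted 1, 3, 1 and 3 in the NMN comparisons, 2 for the schedule difference in liver and 3 for the organ difference of the NMN effect at 2680 mg/kg/d. In the liver at 2680 mg/kg/d the count of 1 became 0 without the robust option, 0 at the stricter threshold and 0 to 0 with 1 library left out. For the organ difference of the NMN effect at 2680 mg/kg/d it was 2 in DESeq2 and 0 to 1 with 1 library left out. Upper quartile scaling turned Hprt in kidney at 1340 mg/kg/d to -0.012, and DESeq2 turned Gda in the organ difference at 1340 mg/kg/d to 0.0022.

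Same-numbered libraries correlated between -0.10 and 0.15 in NMN against water. In liver at 2680 mg/kg/d all 3 correlated best with their own number (0.056, 0.14 and 0.14), a hint from the data and not from the design, and since the first is under 0.1 the number was not taken to pair mice. Between organs, every liver library of water mice correlated best with the kidney library of its own number (0.059 to 0.22), while in NMN mice 4 of 7 did (-0.014 to 0.14), and the block changed no call of the 9 genes between organs in water mice. With the replicate number as a block, liver 1340, liver 2680, kidney 1340 and kidney 2680 gave 16, 1153, 75 and 92 genes, Adk in liver 2680 had -0.47 (adjusted p = 0.0463), the schedule difference in kidney 2 and the organ difference of the NMN effect at 1340 mg/kg/d 2. For the organ difference of the NMN effect, the block joined water and NMN mice of one number within each organ, and not the organs of one number. With that block, 0 of the 9 genes passed for the organ difference at 2680 mg/kg/d. Pnp in liver at 2680 mg/kg/d became 0.014 and Gda in the organ difference at 2680 mg/kg/d 0.024.

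Ranges of the log2 values that changed sign with 1 library left out were as follows. NMN in liver, 1340 mg/kg/d gave Pnp -0.077 to 0.32, Xdh -0.053 to 0.20 and Hprt -0.035 to 0.17. NMN in liver, 2680 mg/kg/d gave Nt5e -0.48 to 0.17 and Pnp -0.15 to 0.24. NMN in kidney, 1340 mg/kg/d gave Nt5e -0.29 to 0.28, Pnp -0.035 to 0.11, Ada -0.0025 to 0.59, Uox -0.41 to 0.27 and Hprt -0.091 to 0.098. NMN in kidney, 2680 mg/kg/d gave Nt5e -0.040 to 0.57, Slc29a1 -0.073 to 0.094 and Hprt -0.10 to 0.0071. Kidney against liver, 1340 mg/kg/d gave Ada -0.35 to 0.76. The schedule difference in liver gave Pnp -0.32 to 0.17, Uox -0.069 to 0.26 and Gda -0.46 to 0.19. The schedule difference in kidney gave Nt5e -0.037 to 0.67, Uox -0.83 to 0.41, Gda -0.20 to 0.050 and Hprt -0.14 to 0.034. Here Uox had only 0 to 3 reads in each 2680 mg/kg/d kidney library, so its range carries no information on an effect there. The organ difference of the NMN effect, 1340 mg/kg/d gave Pnp -0.29 to 0.11, Uox -0.13 to 0.56, Gda -0.19 to 0.16 and Hprt -0.16 to 0.050. The organ difference of the NMN effect, 2680 mg/kg/d gave Pnp -0.0039 to 0.42, Ada -0.059 to 0.43, Uox -0.78 to 0.41 and Gda -0.27 to 0.40. The same low kidney reads limit this Uox range.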
